A study of Mus musculus with 30 samples.

Results

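The transcripts of 37 genes of mitosis and the G2/M phase were followed in mouse embryonic stem cells after loss of cofactors of cohesin. The genes were taken by symbol from a list that spans the mitotic cyclins and kinases, the spindle checkpoint, the chromosomal passenger complex, kinesins, kinetochore proteins, the anaphase-promoting complex and the machinery of sister chromatid separation. All 37 were found among the 55421 genes of the deposited table, each as 1 row, and all 37 passed the filter on low counts that left 19868 genes for testing. The lowest count of any member in any library was 182 (Pttg1).

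Mitotic genes are transcribed in a wave that starts in S phase and peaks in G2 and M. The DREAM complex, with the pocket proteins p130 and p107, represses them in resting and G1 cells through a promoter element called CHR, and B-MYB with the MuvB core and later FOXM1 activates them. NF-Y, which binds CCAAT boxes, is a general activator of the same promoters. The proteins they encode drive entry into mitosis (cyclin B with CDK1, PLK1, Aurora A), hold anaphase back until chromosomes are attached (BUB1, MAD2), and then release cohesin from sister chromatids through the anaphase-promoting complex, securin and separase. Cohesin is the ring that both holds sister chromatids together and folds interphase chromatin into loops. NIPBL stimulates loop extrusion, WAPL releases cohesin from chromatin, and PDS5A and PDS5B act in its release and in its cohesive function.

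Polyadenylated RNA came from male E14 embryonic stem cells of 129 background grown with serum, leukaemia inhibitory factor and 2 kinase inhibitors (PD0325901 and CHIR-99021). All 5 lines carried Tir1, a plant F-box protein that directs proteins fused to an auxin-inducible degron (AID) to destruction when auxin is present. The TIR1 line had no degron fusion, and its treatment was 500 µM auxin for 24 h. The PDS5AB line carried PDS5A-AID and PDS5B-AID and the WAPL line WAPL-AID, each treated with the same auxin for 24 h. The PDS5AB-NIPBL and WAPL-NIPBL lines, called the combined lines here, carried in addition NIPBL-FKBP and RAD21-Halo. They received auxin together with 500 nM dTAG-13, which degrades the FKBP fusion, for 24 h. Every line was also sampled untreated, and each of the 10 groups had 3 libraries. The labels name 1 line per genotype, so a difference between genotypes is also a difference between those lines.

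Libraries held 19632704 to 45539021 counted fragments. The degrons act on protein, so the RNA of the tagged genes does not check the labels. The labels number the libraries, and all PDS5AB and untreated TIR1 libraries lie at 21 or below while all others, auxin-treated TIR1 included, lie at 25 or above. The auxin effect in TIR1, every difference from it, and the baselines of WAPL and both combined lines therefore cross that break, and library set and group cannot be told apart there. The 10 stem cell markers had a mean summed level of 7331 CPM in untreated TIR1 (CPM, counts scaled to library size with TMM factors) against 25.3 CPM for 8 fibroblast markers, of which Col3a1, Postn, Lum and Dcn stood at 0 in at least 1 library. In the treated PDS5AB, WAPL, PDS5AB-NIPBL and WAPL-NIPBL libraries the summed level of the stem cell markers fell, by 33.1%, 20.7%, 18.0% and 15.8%. The most abundant markers weigh most in such sums. The summed level of 7 primitive endoderm markers rose in the same lines without overlap, from library ranges of 24.4 to 27.3, 10.3 to 13.2, 10.5 to 13.1 and 5.78 to 6.21 CPM to ranges of 59.0 to 72.6, 38.1 to 53.8, 30.1 to 36.03 and 14.3 to 15.7 CPM. In TIR1 it rose as well, with 7.76 to 8.71 CPM in untreated and 10.1 to 11.2 CPM in treated libraries, also without overlap. Of these 7 markers 4, 5, 3 and 3 were called higher and none lower (edgeR), and Sox7 stood at 0 in at least 1 library. Fibroblast markers went from 28.8 to 41.6 CPM in PDS5AB, from 24.4 to 17.9 in WAPL and from 20.7 to 23.4 in PDS5AB-NIPBL, each without overlap. In TIR1 and WAPL-NIPBL their groups overlapped. Summed trophoblast markers rose with auxin alone in TIR1, from 87.6 to 137 CPM. They went from 95.2 to 35.7 CPM in WAPL, from 75.1 to 44.1 in PDS5AB-NIPBL and from 68.4 to 37.0 in WAPL-NIPBL, all without overlap, and from 68.4 to 66.7 CPM in PDS5AB, with overlap. Summed mesoderm and streak markers rose without overlap in all 5 lines, by 75.7% in TIR1, 61.6% in PDS5AB and 34.6% in WAPL, and by 37.1% and 55.2% in the combined lines with PDS5AB and WAPL. Neural progenitor markers, at group means from 3.69 to 8.98 CPM, were lower without overlap in every line but PDS5AB, where the groups overlapped. The part of these shifts in the results on mitotic genes was not tested.

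The promoters are shown first, because the members share letters there that their choice did not use. RefSeq windows from 250 bases before to 50 bases after the annotated start (GRCm38.p6) were matched for 32 of the 37 members, with 35 windows among them. The CHR letters, TTTGAA or TTTAAA on either strand, stood in 77.1% of the member windows and in 27.6% of all 32851 windows of the same length. The letters CCAAT on either strand stood in 80.0% against 37.4%, and at least 2 copies of them in 48.6% against 11.7%. Both the CHR letters and at least 2 copies of CCAAT stood in 45.7% of the member windows and in 3.13% of all windows. The motifs were searched separately, so that a CCAAT and a CHR match may share a letter, and a match is a description of letters, not a binding site.

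Stretches of up to 120 bases upstream of the start follow for 6 members, 5′ to 3′ on the gene's strand, ending where an exon of the deposited gene model begins. They were chosen to set members that later fell in the PDS5AB line (Cdk1, Plk1, Kif11 and Ect2) beside members that were not called in any treatment effect in the fit without a replicate block (Cdc20 and Top2a). With the block, Cdc20 and Top2a were called lower in PDS5AB too. Capitals mark both motifs, and a match on the opposite strand appears as its reverse complement. They lie at chr10:69352939-69353032 (minus strand), chr7:122159315-122159434 (plus strand), chr19:37376262-37376381 (plus strand), chr3:27153879-27153998 (minus strand), chr4:118437353-118437463 (minus strand) and chr11:99024190-99024309 (minus strand).
Cdk1: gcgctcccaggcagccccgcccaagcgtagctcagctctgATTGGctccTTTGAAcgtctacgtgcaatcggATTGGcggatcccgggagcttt
Plk1: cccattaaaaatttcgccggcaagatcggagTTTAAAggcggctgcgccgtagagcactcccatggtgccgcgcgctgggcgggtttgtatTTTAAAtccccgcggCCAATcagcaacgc
Kif11: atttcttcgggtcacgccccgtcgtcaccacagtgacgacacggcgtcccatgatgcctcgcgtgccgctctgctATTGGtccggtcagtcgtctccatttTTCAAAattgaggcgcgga
Ect2: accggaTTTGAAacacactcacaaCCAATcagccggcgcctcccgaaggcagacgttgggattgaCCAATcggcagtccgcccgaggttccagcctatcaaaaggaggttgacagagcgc
Cdc20: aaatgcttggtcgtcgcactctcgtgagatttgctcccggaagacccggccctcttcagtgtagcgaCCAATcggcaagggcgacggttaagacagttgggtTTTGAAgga
Top2a: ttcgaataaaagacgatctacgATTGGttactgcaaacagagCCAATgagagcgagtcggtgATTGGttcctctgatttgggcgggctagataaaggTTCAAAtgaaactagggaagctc
Each of the 6 stretches holds both motifs. In the Cdk1 stretch the CHR letters stand between a pair of CCAAT boxes, in Kif11 and Cdc20 downstream of a single box, and in Top2a downstream of all 3 boxes. By the calls of the fit without the block, the letters were present in 15 of the 19 members with a window that were called lower in PDS5AB (78.9%) and in 10 of the 13 that were not (76.9%). The 4 members that fell without CHR letters in their window were Sgo1, Mad2l1, Nuf2 and Nusap1.

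**Figure D1:**
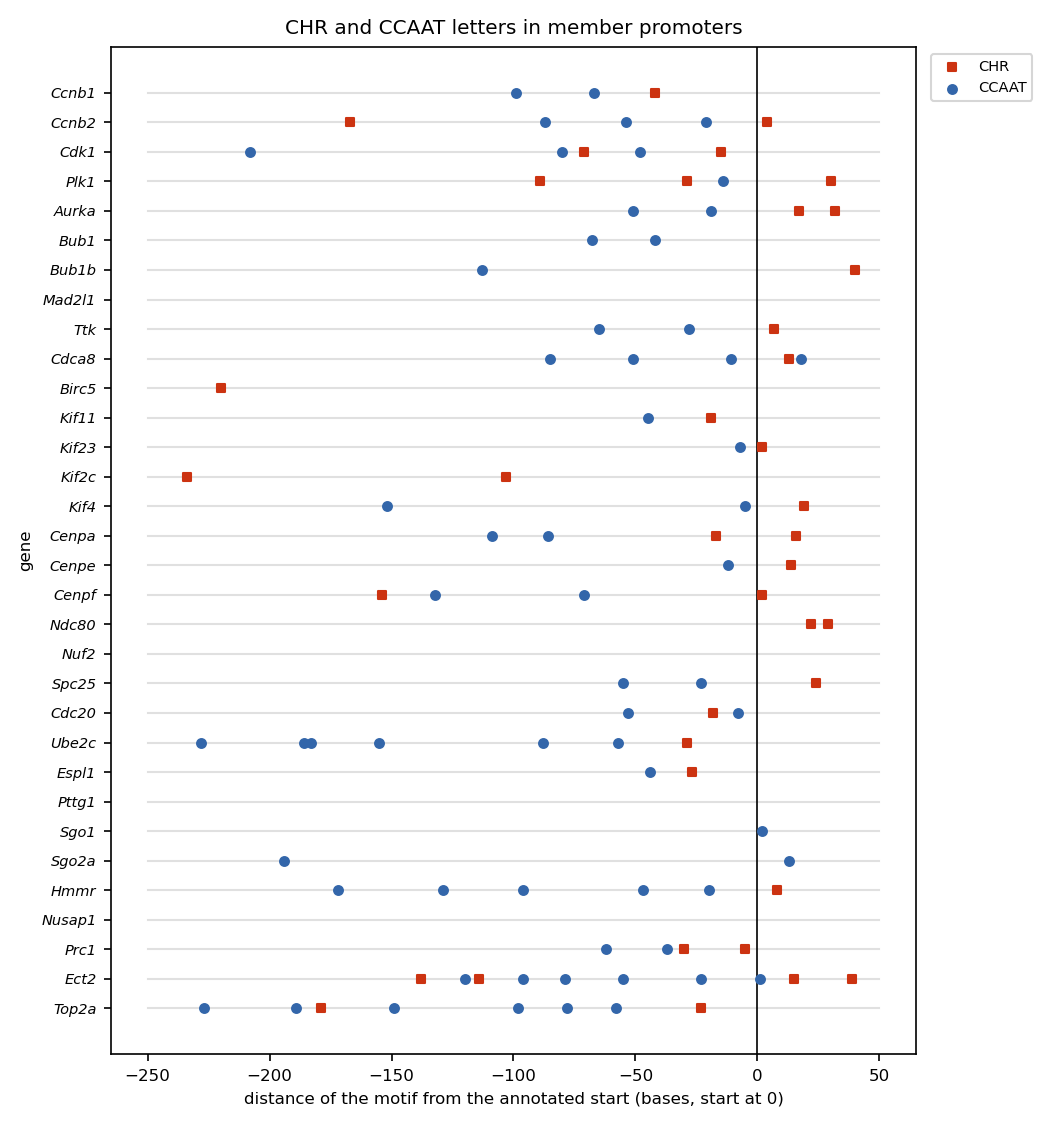
Positions of the CHR letters (red squares) and CCAAT (blue circles) on either strand in the RefSeq promoter windows of the 32 matched members, in bases from the annotated start, with members in rows by role and several windows of a gene drawn on 1 row. Most CCAAT copies lie upstream of the start, and Mad2l1, Nuf2, Pttg1 and Nusap1 have neither motif.

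Per length, averaged over all libraries, the most abundant members were Cdc20, the activator of the anaphase-promoting complex, at 156 RPKM (counts scaled for exon length and depth), the topoisomerase Top2a at 119, the ubiquitin-conjugating enzyme Ube2c at 98.5 and Plk1 at 93.0 RPKM. The lowest on that average was Sgo2a, a protector of centromeric cohesin, at 7.04 RPKM, although in untreated PDS5AB-NIPBL cells Pttg1 stood lower (4.201 against 7.95 RPKM). The members' summed level in untreated cells was 7659 ± 324 CPM (SD, n = 3) in TIR1, 7515 ± 365 in PDS5AB and 7775 ± 84.3 in WAPL. The combined lines stood at 8018 ± 144 (PDS5AB-NIPBL) and 8269 ± 87.1 CPM (WAPL-NIPBL). After treatment it was 7427 ± 98.2, 6455 ± 244, 7125 ± 179, 7535 ± 173 and 7950 ± 195 CPM in the same order. With TMM scaling, treated and untreated libraries overlapped in TIR1 and did not overlap in the other 4 lines. The size of these falls depends on that scaling. With plain library totals in place of TMM the members' median log2 change moved from -0.27 to -0.11 in PDS5AB. It moved from -0.15 to -0.06 in WAPL, from -0.09 to -0.04 in PDS5AB-NIPBL and from -0.05 to -0.005 in WAPL-NIPBL. The sums and their overlap are given for TMM scaling only. In bulk RNA, fewer cells in G2 and M and less mitotic RNA per cell cannot be told apart.

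In PDS5AB cells given auxin, many mitotic genes were modestly lower than in untreated cells of the line. Of the 37 members, 22 fell and 2 rose, at a median log2 change of -0.27 (edgeR's quasi-likelihood test, Benjamini-Hochberg adjusted p under 0.05 over 19868 genes). Of all genes tested, 46% were called, 20.2% lower and 25.8% higher, with a median of 0.04, so that 59.5% of the members against 20.2% of all genes were called lower. With a block for replicate number 29 members were lower and 3 higher, beside 56.6% of all genes called and 26% called lower. Set against the effect of auxin alone in TIR1, described further on, 12 members were lower without the block. The falls were small: 2 members, Sgo1 and Plk1, were called with a change beyond 0.5 on the log2 scale. Treated and untreated libraries did not overlap for 22 members, against 52.8% of all genes.

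**Figure D2:**
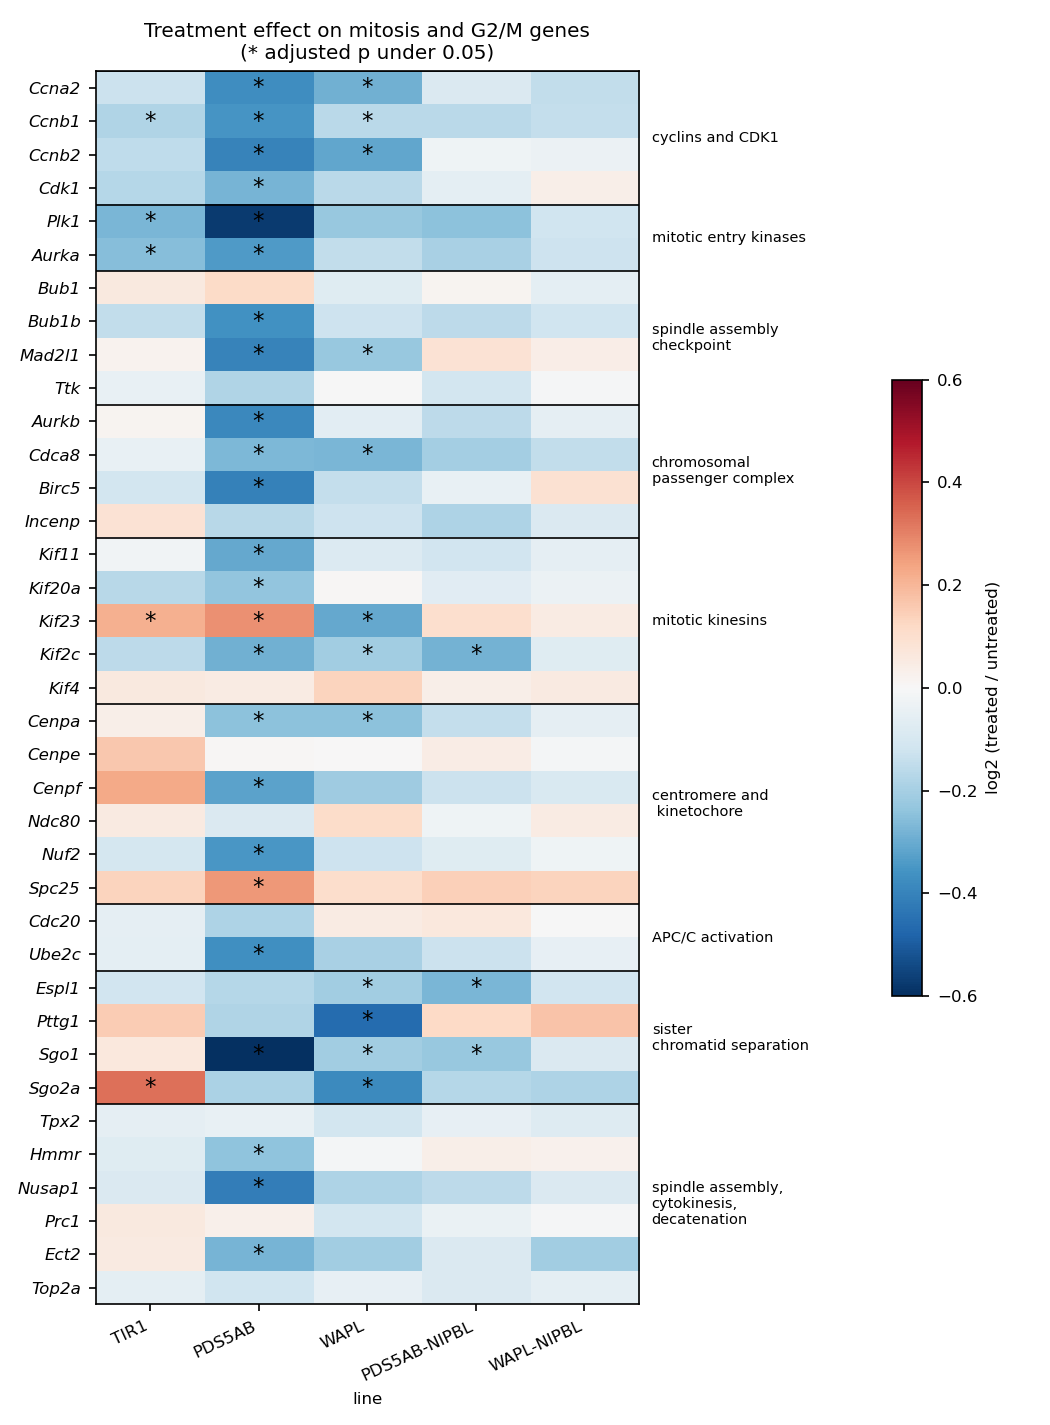
Log2 difference of treated from untreated cells for the 37 members (rows, by role) in the 5 lines (columns), with colour from blue (lower) to red (higher) and an asterisk where the edgeR adjusted p was under 0.05. The PDS5AB column holds 22 called falls, the WAPL column 12, and the WAPL-NIPBL column no call. Asterisks are from the fit without a replicate block, and with the block more members were called in each of these columns.

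Among the cyclins and CDK1, all 4 fell in PDS5AB. Ccnb1, which encodes cyclin B1, the partner that takes CDK1 into mitosis (chromosome 13, 100778650 to 100786570, minus strand, GRCm38), stood at 357, 434 and 414 CPM in the 3 untreated libraries and at 291, 328 and 323 CPM after treatment. All treated libraries lay below all untreated ones, and the log2 change was -0.36 (SE 0.061, edgeR adjusted p = 2.09e-05). Ccnb2 went from 123, 121 and 122 CPM to 89.1, 93.3 and 94.4 CPM, with no overlap (log2 -0.40, edgeR adjusted p = 1.98e-06). Ccna2, the cyclin of S phase and early mitosis, changed by -0.37 and Cdk1 by -0.28.

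Both kinases of mitotic entry fell. Plk1, the polo-like kinase of entry, centrosome maturation and removal of arm cohesin, stood at 227, 179 and 177 CPM untreated and at 149, 120 and 123 CPM treated (chromosome 7, 122159439 to 122169873, plus strand). The replicate 1 libraries were the highest of both groups, and the groups did not overlap. Its log2 change was -0.57 (SE 0.097, edgeR adjusted p = 1.63e-05), a level of 67.2% of the untreated one. Aurka, the centrosomal Aurora kinase, went from 188, 197 and 191 to 150, 152 and 152 CPM (log2 -0.34, edgeR adjusted p = 0.00232).

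In the spindle assembly checkpoint, Mad2l1 and Bub1b fell while Bub1 and Ttk did not pass the test. Mad2l1 encodes MAD2, which holds back CDC20 at unattached kinetochores. It stood at 135, 147 and 134 CPM untreated and at 99.4, 105 and 111 CPM treated, without overlap (chromosome 6, 66535390 to 66547220, log2 -0.40, SE 0.075, edgeR adjusted p = 6.09e-05). Bub1b, the gene of BUBR1, changed by -0.36. The kinases Bub1 (log2 0.11, edgeR adjusted p = 0.411) and Ttk (-0.18, edgeR adjusted p = 0.0562) lie at the top of the same checkpoint. With the replicate block Ttk was called lower and Bub1 higher.

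Of the chromosomal passenger complex, which corrects wrong attachments at the centromere, the kinase Aurkb (-0.39), survivin Birc5 (-0.40) and borealin Cdca8 (-0.27) fell. The scaffold Incenp was at -0.16 and was not called (edgeR adjusted p = 0.0623). Cdca8 stood at 161, 137 and 134 CPM untreated and 130, 115 and 113 CPM treated (chromosome 4, 124918465 to 124939311, minus strand). Every treated library lay below every untreated one (edgeR adjusted p = 0.00439). Without untreated replicate 1 that call ended (edgeR adjusted p = 0.0608).

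The kinesins moved in both directions. Kif11, the motor that pushes spindle poles apart, fell by 0.31 on the log2 scale, Kif2c, the microtubule depolymerase MCAK, by 0.29, and Kif20a, a motor of the central spindle, by 0.23. Kif23, the kinesin of centralspindlin in cytokinesis, rose: it stood at 119, 133 and 142 CPM untreated and at 148.2, 160 and 169 CPM treated (chromosome 9, 61915905 to 61946774, minus strand, log2 0.27, SE 0.077, edgeR adjusted p = 0.00443). The lowest treated library lay above the highest untreated one. The chromokinesin Kif4 was at 0.05 and was not called (edgeR adjusted p = 0.603).

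At the centromere and kinetochore, Cenpa, the centromeric histone H3 variant, went from 153, 166 and 170 CPM to 126, 142 and 144 CPM, without overlap (chromosome 5, 30666777 to 30674830, log2 -0.24, edgeR adjusted p = 0.00133). Of the NDC80 complex, which binds microtubules, Nuf2 fell (-0.35), Spc25 rose (0.26, from 78.8, 90.6 and 87.0 to 97.7, 107 and 103 CPM, edgeR adjusted p = 0.000407) and Ndc80 was not called (-0.09). Cenpf was called lower (-0.32, edgeR adjusted p = 0.0112) although its groups overlapped. That call ended without untreated replicate 2 (edgeR adjusted p = 0.0586), untreated replicate 3 (0.0641) or treated replicate 1 (0.0735). Cenpe, the kinetochore kinesin, was at 0.01.

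Ube2c, the ubiquitin-conjugating enzyme of the anaphase-promoting complex, stood at 268, 223 and 221 CPM untreated and at 211, 171 and 168 CPM treated (chromosome 2, 164769898 to 164778822, log2 -0.37, edgeR adjusted p = 0.00297). No treated library reached the untreated ones. Cdc20, the most abundant member per length, was at -0.19 and was not called (edgeR adjusted p = 0.126). It was called lower with the replicate block.

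The largest fall of a member was that of Sgo1, shugoshin 1, which shields centromeric cohesin from WAPL-dependent removal in prophase. It stood at 85.2, 95.3 and 93.8 CPM untreated and at 55.8, 61.1 and 63.6 CPM treated (chromosome 17, 53674786 to 53689333, minus strand). The groups were far apart, and the treated level was 65.8% of the untreated one (log2 -0.60, SE 0.066, edgeR adjusted p = 1.26e-08). Espl1 (separase, -0.17), Pttg1 (securin, -0.18) and Sgo2a (-0.19) were not called. With a block for replicate number these 3 were called lower too (edgeR adjusted p = 0.000628, 0.0413 and 0.00492).

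Among the remaining spindle and cytokinesis genes, Nusap1, a microtubule-bundling protein, went from 137, 177 and 183 CPM to 109, 131 and 134 CPM (chromosome 2, 119618298 to 119651244, log2 -0.41, SE 0.087, edgeR adjusted p = 0.000257). The treated libraries all lay below the lowest untreated one. Ect2, the RhoA activator of the cleavage furrow, and Hmmr, a spindle protein, were called lower by 0.28 and 0.24 with overlapping groups. Tpx2, Prc1 and Top2a were not called, though Top2a was called lower with the replicate block. Without untreated replicate 2 the calls of Ect2 and Cdk1 ended (edgeR adjusted p = 0.0625 and 0.0806), and that of Ect2 also ended without untreated replicate 3 (0.0552).

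**Figure D3:**
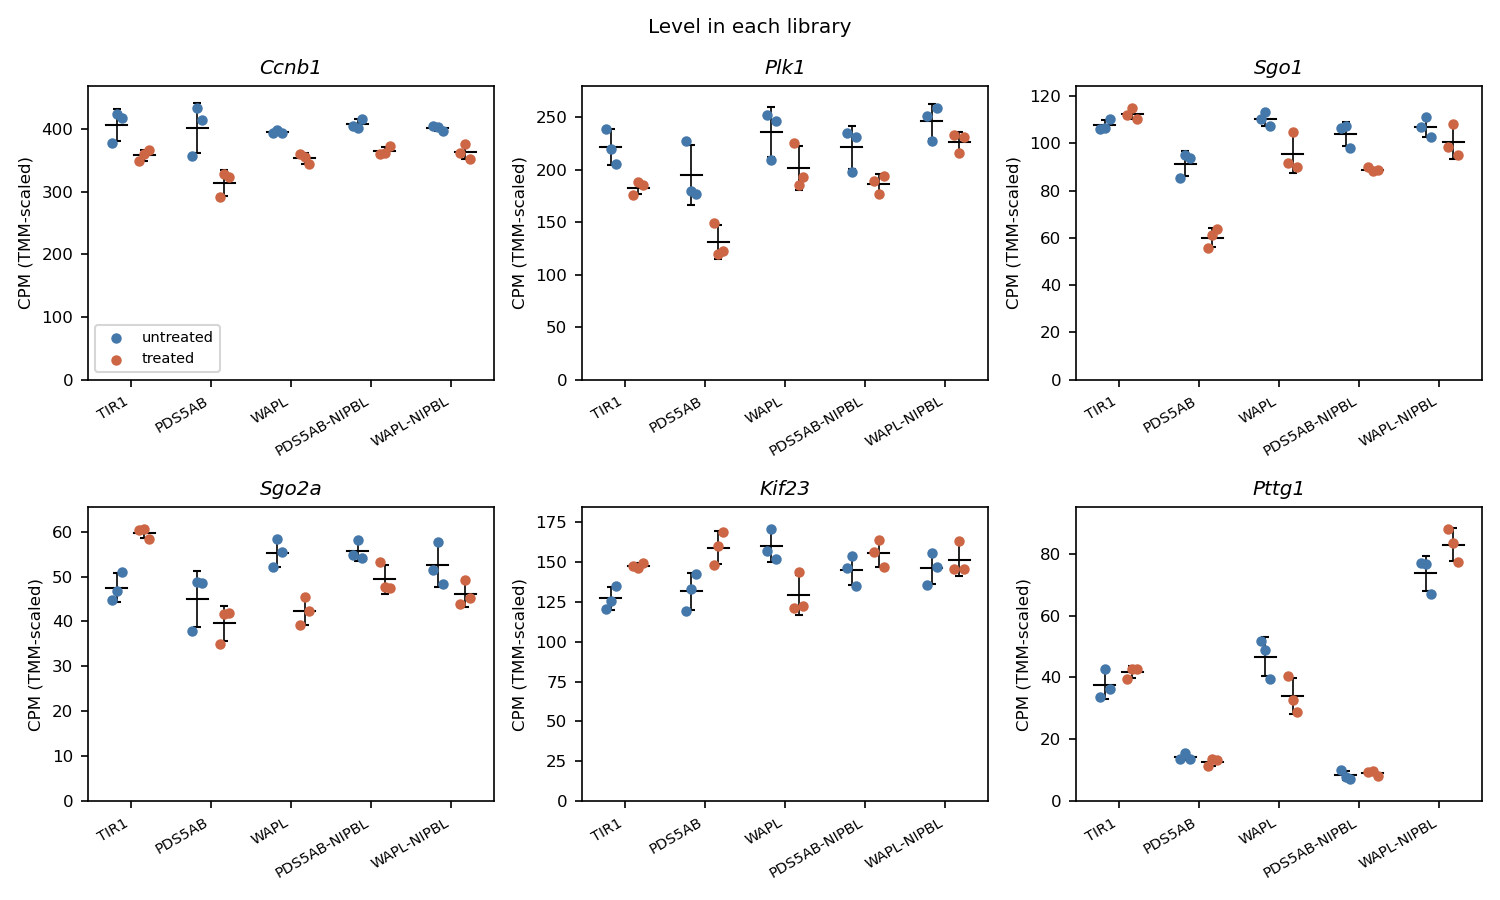
TMM-scaled CPM of 6 members in every library, untreated (blue) and treated (red), by line, with bars for the mean and the SD of 3 libraries. Sgo1 and Plk1 are lowest in treated PDS5AB cells, Kif23 moves up in PDS5AB and down in WAPL, and Pttg1 differs more between lines than with treatment.

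The size of the PDS5AB result depended on the scaling of the libraries. With plain library totals in place of TMM the median of all genes moved from 0.04 to 0.19, and the members' median from -0.27 to -0.11. In that fit 12 members were lower and 6 higher, against 11.9% of all genes called lower, and no member called in both fits had another sign. The calls of Cdk1, Aurka, Cdca8, Kif20a, Kif2c, Cenpa, Cenpf, Ube2c, Hmmr and Ect2 ended there. The other 14 kept their call and direction in 12 alternatives, 6 settings of the fit and 6 with a library left out. A size threshold of 0.5 on the log2 scale is not among these 12, here or below, and under it the calls of Sgo1 and Plk1 alone remained in PDS5AB. Relative to the median gene the members therefore stood about equally low under both scalings, while their level per total counts changed less.

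Some mitotic genes were also lower in WAPL cells given auxin, with fewer calls than in PDS5AB. There were 12 called lower and none called higher, at a median of -0.15 (edgeR, 18 lower and 0 higher at an unadjusted p under 0.05, and 0 called higher by DESeq2). Of all genes 32.8% were called, 15.8% lower and 17% higher, and 32.4% of the members were called lower. No call passed 0.5 on the log2 scale. With 1 library left out, 6 to 14 members were called, the fewest without treated replicate 3. With plain totals the members' median was -0.06 and that of all genes 0.09, and 6 members were called lower and 2 higher, beside 10.6% of all genes called lower. The cyclins Ccna2 (-0.29), Ccnb2 (-0.31) and Ccnb1 (-0.16) were among the 12 called with TMM scaling, and so were all 4 genes of sister chromatid separation.

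Pttg1, which encodes securin, the inhibitor that separase sheds at anaphase, changed most. It stood at 51.8, 48.9 and 39.5 CPM untreated and at 40.5, 32.7 and 28.9 CPM treated (chromosome 11, 43420250 to 43426251, minus strand, log2 -0.46, SE 0.12, edgeR adjusted p = 0.00219). The highest treated library lay just above the lowest untreated one. Sgo2a, shugoshin 2, went from 52.1, 58.3 and 55.5 CPM to 39.3, 45.5 and 42.2 CPM (chromosome 1, 57995971 to 58025899, log2 -0.38, SE 0.089, edgeR adjusted p = 0.00116), without overlap. Sgo2a has a near copy, Sgo2b, so its count is uncertain to the extent that fragments fit both. Espl1, separase itself, went from 193, 204 and 195 to 166, 174 and 173 CPM (log2 -0.21, edgeR adjusted p = 0.0263).

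Kif23, which rose in PDS5AB, fell in WAPL, from 157, 171 and 152 CPM to 121, 143 and 122 CPM (log2 -0.31, edgeR adjusted p = 0.0023). Its 3 treated libraries lay below its 3 untreated ones. Ccnb2 went from 159, 158 and 148.05 to 136, 122 and 118 CPM (edgeR adjusted p = 0.000111). Cdca8 (-0.27), Cenpa (-0.24), Mad2l1 (-0.23), Kif2c (-0.21) and Sgo1 (-0.21) completed the list, Sgo1 at 110, 113 and 108 CPM untreated and 91.9, 105 and 90.1 CPM treated.

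The calls of Ccna2, Ccnb2, Kif23, Pttg1 and Sgo2a in WAPL held in the 12 alternatives without a size threshold, and that of Cenpa ended with plain totals (edgeR adjusted p = 0.0529) and with no single library left out. Plain totals also ended the calls of Ccnb1, Mad2l1, Kif2c, Espl1 and Sgo1 (edgeR adjusted p from 0.128 to 0.34). The call of Ccnb1 ended without any 1 of the 6 libraries (edgeR adjusted p from 0.0551 to 0.197), and so did that of Espl1 (0.0599 to 0.126). Mad2l1 and Kif2c lost theirs without untreated replicate 1 or 3 or treated replicate 2 or 3 (edgeR adjusted p from 0.0627 to 0.132 and from 0.0607 to 0.121). Cdca8 lost its call without untreated replicate 1 or treated replicate 2 or 3 (0.0516 to 0.0651), and Sgo1 without untreated replicate 2 or treated replicate 1 or 3 (0.0659 to 0.156). With the block for replicate number, 25 members were called lower and 2 higher, against 45.1% of all genes called and 23.0% called lower, and Plk1 (-0.23), Ube2c (-0.20) and Nusap1 (-0.18) joined the falls.

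There were 8 members called lower in both single-cofactor lines: Ccna2, Ccnb1, Ccnb2, Mad2l1, Cdca8, Kif2c, Cenpa and Sgo1. Of these, Ccna2 and Ccnb2 alone kept both calls in the 12 alternatives without a size threshold. The 8 were 21.6% of the members, beside 9.82% of all genes tested. They made up 36.4% of the members' falls in PDS5AB and 66.7% of those in WAPL, where the same shares over all genes were 48.6% and 62.3%. Espl1, Kif23, Pttg1 and Sgo2a were called lower in WAPL without a lower call in PDS5AB, but with the replicate block Espl1, Pttg1 and Sgo2a were called lower in PDS5AB too. Of the differences between the 2 effects, tested directly, 2 members passed (12.5% of all genes did, 7.38% higher and 5.11% lower). With 1 library left out, 2 to 8 members passed, the most without untreated PDS5AB replicate 1. The effect on Kif23 was higher in PDS5AB than in WAPL by 0.58 (SE 0.109, edgeR adjusted p = 0.000446) and that on Sgo1 was lower by 0.40 (SE 0.0928, edgeR adjusted p = 0.00383), and both held in 18 alternatives, 6 settings and 12 left-out libraries. With the size threshold of 0.5 the difference in Sgo1 was lost. In the blocked fit 14 members were lower and 3 higher in PDS5AB than in WAPL, against 27.3% of all genes called.

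When NIPBL was degraded as well, how many mitotic genes were called depended on whether same-numbered libraries were paired. Without a replicate block 3 members were called in PDS5AB-NIPBL and 0 in WAPL-NIPBL, and with it 18 and 10. In the fit without the block, 3 members of PDS5AB-NIPBL fell and none rose (median -0.09, edgeR), beside 19.5% of all genes called, 8.06% lower and 11.4% higher. At an unadjusted p under 0.05 there were 10 lower and 1 higher, and by DESeq2 5 lower and 1 higher. Kif2c went from 133, 117 and 133 CPM to 105, 99.0 and 112 CPM (chromosome 4, 117159639 to 117182639, minus strand, log2 -0.28, edgeR adjusted p = 0.00393). Espl1 went from 209, 211 and 225 CPM to 178, 174 and 181 CPM (chromosome 15, 102296266 to 102324357, log2 -0.28, edgeR adjusted p = 0.00608). Sgo1 went from 106, 107 and 98.0 CPM to 89.8, 88.1 and 88.5 CPM (log2 -0.23, edgeR adjusted p = 0.0136). In all 3 the treated libraries lay below the untreated ones, and the call of Sgo1 ended without treated replicate 2 (edgeR adjusted p = 0.0543) or 3 (0.0527). Kif2c and Sgo1 were called lower in PDS5AB, WAPL and PDS5AB-NIPBL alike, although their WAPL calls ended in 7 and 6 of 12 alternatives. With the replicate block 16 members were lower and 2 higher (32.1% of all genes called, 15.3% lower), Plk1 (-0.24) and Cdca8 (-0.20) among the falls.

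In WAPL-NIPBL no member was called by edgeR, beside 8.57% of all genes (3.45% lower and 5.11% higher). At an unadjusted p under 0.05, 5 were lower and 1 higher, and DESeq2 called 1 lower. The median was -0.05 and the extremes were Ect2 at -0.21 and Pttg1 at 0.17. Ccnb1 stood at 405, 403 and 397 CPM untreated and at 362, 377 and 353 CPM treated, a log2 change of -0.14 (edgeR adjusted p = 0.167) with no overlap between the groups. With the replicate block 8 members were lower and 2 higher (20.9% of all genes called, 10.1% lower), Ccnb1 and Ect2 (-0.21) among the former.

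The combined lines were then compared with the single-cofactor lines. The absolute change was larger in PDS5AB than in PDS5AB-NIPBL for 32 of 37 members, and in WAPL than in WAPL-NIPBL for 31 of 37. Those are 86.5% and 83.8% of the members, beside 68.6% and 67.4% of all genes tested, so that larger changes in the single lines were general. Tested directly, 5 members had a less negative effect in PDS5AB-NIPBL than in PDS5AB and none a more negative one, beside 9.46% of all genes called, 4.97% higher and 4.48% lower. Mad2l1 differed most, by 0.49 (SE 0.106, edgeR adjusted p = 0.00309): its libraries went from 145, 148.3 and 171 to 161, 154 and 178 CPM in the combined line. Ccnb2 differed by 0.38 (edgeR adjusted p = 0.00362), going from 156, 142 and 141 to 150, 139 and 143 CPM in the combined line. Sgo1 (0.38), Birc5 (0.36) and Ccna2 (0.29) were the others.

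Of these 5 differences, those of Mad2l1 and Ccnb2 held in the 18 alternatives without a size threshold, and none of the 5 passed a threshold of 0.5. With plain totals those 2 alone remained, and the Birc5 call also ended when untreated PDS5AB replicate 2 was left out (edgeR adjusted p = 0.0696), or untreated PDS5AB-NIPBL replicate 2 (0.0726) or treated PDS5AB-NIPBL replicate 3 (0.052). The block gave 19 members higher and 1 lower (24.4% of all genes called). The lines differ in library set as well as in NIPBL and RAD21 alleles, and these cannot be told apart.

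Between WAPL-NIPBL and WAPL, 3 members were called, all less negative in the combined line, beside 5.19% of all genes, 3.03% higher and 2.16% lower. Pttg1 differed by 0.63 (SE 0.16, edgeR adjusted p = 0.0159), going from 77.0, 76.9 and 67.2 to 88.0, 83.5 and 77.3 CPM in WAPL-NIPBL. Kif23 differed by 0.36 (edgeR adjusted p = 0.05) and Ccnb2 by 0.27 (edgeR adjusted p = 0.0491), both at the threshold, and each was lost in 12 of 18 alternatives and with the size threshold of 0.5. The Pttg1 call ended without untreated WAPL replicate 1 (edgeR adjusted p = 0.063), treated WAPL replicate 3 (0.0681) or untreated WAPL-NIPBL replicate 3 (0.0564). In the blocked fit 7 members were called, all higher (15.5% of all genes called).

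**Figure D4:**
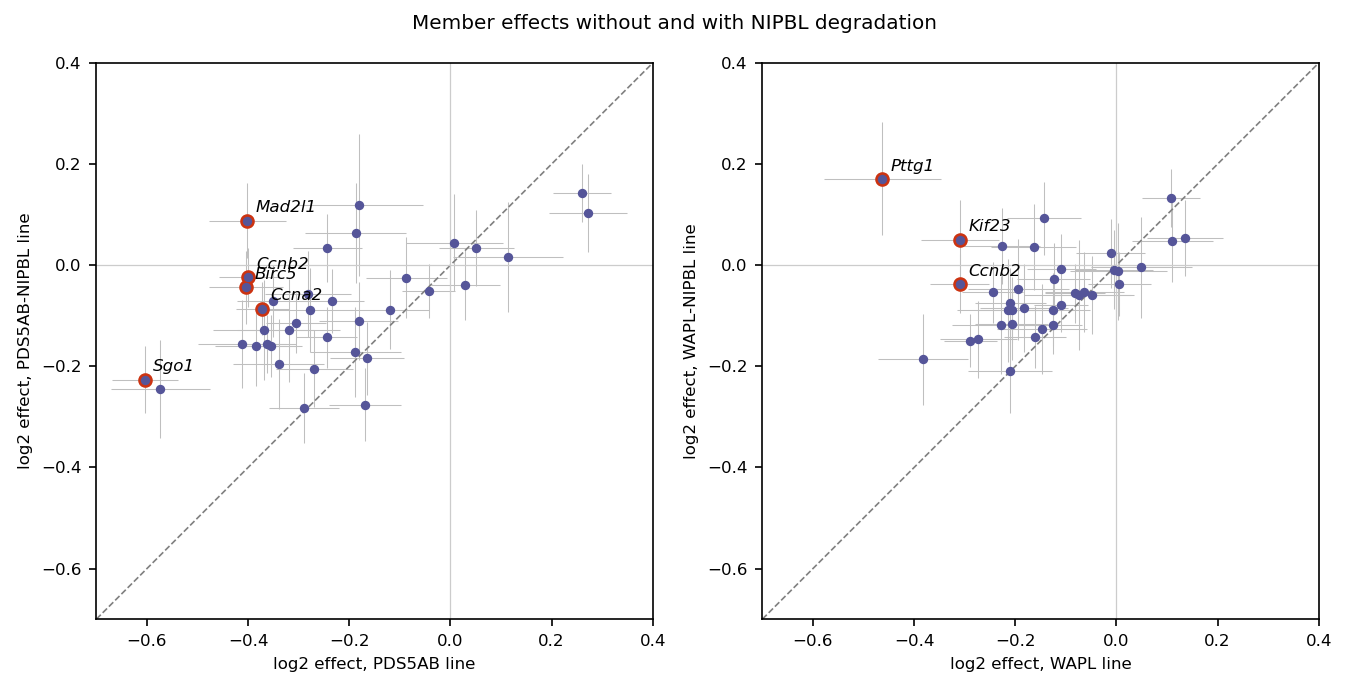
Log2 treatment effect of each of the 37 members in the single-cofactor line (x) and in the matching line with NIPBL-FKBP (y), with SE bars, the line of equality dashed and the members whose difference was called in red. Most points with a negative effect lie above the dashed line. The combined line had the higher value for 29 of 37 members with PDS5AB and 30 of 37 with WAPL. The shares of all genes, 48.2% and 51.3%, are not like for like. In each single line 31 of 37 members had a negative effect, but 46.9% (PDS5AB) and 49.5% (WAPL) of all genes did. The absolute change was larger in the single line for 86.5% and 83.8% of the members, beside 68.6% and 67.4% of all genes.

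In TIR1 cells given auxin alone, 5 members were called, 3 lower and 2 higher, at a median of -0.04. That was 13.5% of the members beside 19.9% of all genes (9.59% lower and 10.4% higher). The count was 9 with DESeq2, 9 when the TIR1 groups were fitted alone, and 1 to 4 with a library left out. Plk1 went from 239, 220 and 205 CPM to 176, 188 and 185 CPM (log2 -0.28, edgeR adjusted p = 0.0421), Aurka from 192, 208 and 206 to 170, 171 and 167 CPM (-0.25, edgeR adjusted p = 0.0416). Sgo2a rose, from 44.8, 46.7 and 51.1 CPM to 60.3, 60.5 and 58.3 CPM (log2 0.33, SE 0.089, edgeR adjusted p = 0.00832). None of the 3 had overlapping groups. Kif23 was higher (0.21) and Ccnb1 lower (-0.18), and the call of Sgo2a was the only one of the 5 kept in the 12 alternatives without a size threshold. None of the 5 passed a threshold of 0.5. Treated and untreated TIR1 libraries lie on different sides of the break in library numbers, so auxin and library set cannot be told apart here.

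The other 4 TIR1 calls each ended without several single libraries. Aurka was lost without any 1 of the 6 (edgeR adjusted p from 0.0593 to 0.133), Plk1 without any but untreated replicate 3 (0.0873 to 0.238), Kif23 likewise (0.0689 to 0.125), and Ccnb1 without any but untreated replicate 1 (0.0679 to 0.158). Ccnb1, Plk1 and Aurka, which fell in PDS5AB, were also called lower in treated TIR1. Kif23, which rose in PDS5AB (0.27), was also called higher in treated TIR1 (0.21). The difference between those 2 rises was 0.06 and was not called (edgeR adjusted p = 0.743).

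Set against the auxin effect, the effect in PDS5AB was lower for 12 members and higher for none, beside 26.3% of all genes called and 12.4% called lower. The largest differences were those of Sgo1 (-0.67, SE 0.0928, edgeR adjusted p = 3.88e-06), Cenpf (-0.55, edgeR adjusted p = 0.00533) and Sgo2a (-0.52, edgeR adjusted p = 0.00265). Mad2l1 (-0.42) and Aurkb (-0.40) followed, whereas Plk1, Ccnb1 and Aurka were not among the 12. With plain totals 4 members were lower and 1 higher, beside 26.6% of all genes called and 6.67% called lower. Under the block 21 were lower (40.2% of all genes called), Plk1 by 0.30. In every difference from the auxin effect the block also paired TIR1 libraries by number, although those did not deviate together.

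The effect in WAPL was lower than the auxin effect for 6 members and higher for none, beside 20.7% of all genes called, 10.9% lower and 9.86% higher. Sgo2a differed by -0.71 (SE 0.126, edgeR adjusted p = 0.000105), Pttg1 by -0.62 (edgeR adjusted p = 0.00634) and Kif23 by -0.52 (edgeR adjusted p = 0.000722). Sgo2a was the one member that passed in all 4 lines, at -0.50 in PDS5AB-NIPBL (edgeR adjusted p = 0.00928) and -0.52 in WAPL-NIPBL (edgeR adjusted p = 0.01). Since Sgo2a rose in TIR1, these values share that rise, and the 4 differences share the same 6 TIR1 libraries. In PDS5AB-NIPBL Sgo1 passed as well (-0.29, edgeR adjusted p = 0.0422, beside 10.1% of all genes called, 4.81% lower and 5.28% higher). In WAPL-NIPBL Sgo2a stood alone, beside 7.04% of all genes, 3.94% lower and 3.10% higher. The replicate block gave 13 lower and 1 higher in WAPL, 8 lower in PDS5AB-NIPBL and 5 lower and 2 higher in WAPL-NIPBL, against 35.4%, 25.1% and 22.3% of all genes called.

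The untreated lines themselves differed in some mitotic genes, and most of all in securin. Pttg1 stood at 33.8, 42.7 and 36.2 CPM in untreated TIR1, 13.8, 15.7 and 13.8 CPM in PDS5AB, 51.8, 48.9 and 39.5 CPM in WAPL, 10.04, 7.92 and 7.24 CPM in PDS5AB-NIPBL and 77.0, 76.9 and 67.2 CPM in WAPL-NIPBL. Both lines with PDS5A-AID and PDS5B-AID lay below every library of the other 3 lines. Against TIR1 the log2 difference was -1.38 in PDS5AB (SE 0.121, edgeR adjusted p = 2.02e-10), -2.16 in PDS5AB-NIPBL (SE 0.129, edgeR adjusted p = 1.17e-13) and 0.97 in WAPL-NIPBL (SE 0.115, edgeR adjusted p = 1.71e-07). WAPL cells were not called by this test. Each of the 3 calls held in the 12 alternatives and passed the size threshold of 0.5.

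Other members differed less. In untreated PDS5AB, 5 members were called (32% of all genes were, 16.5% lower and 15.5% higher): besides Pttg1, Ccnb2 (-0.28), Sgo1 (-0.24) and Cdca8 (-0.20) were lower and Ndc80 higher (0.22). Untreated WAPL had 3 higher (14% of all genes called, 6.62% higher and 7.39% lower): Kif23 (0.33), Incenp (0.23) and Spc25 (0.18). Untreated PDS5AB-NIPBL had 9 higher and 2 lower (34.3% of all genes called, 16.5% higher and 17.8% lower), led after Pttg1 by Ttk (0.34), Espl1 (0.31) and Kif4 (0.30). Untreated WAPL-NIPBL had 8 higher (28% of all genes called, 13.4% higher and 14.6% lower). Cenpe led them after Pttg1, at 297, 314 and 287 CPM against 163, 189 and 214 CPM in TIR1 (log2 0.67, SE 0.0964, edgeR adjusted p = 4.58e-06), and the groups did not overlap. Of the calls in these 4 baselines, 2 of 5, 1 of 3, 6 of 11 and 3 of 8 held in the 12 alternatives without a size threshold, in the order PDS5AB, WAPL, PDS5AB-NIPBL, WAPL-NIPBL. With a threshold of 0.5 there were 1, 0, 1 and 2. Those of Cdca8 and Ndc80 in PDS5AB and of Incenp and Spc25 in WAPL ended without any 1 of 4, 3, 4 and 5 libraries (edgeR adjusted p up to 0.212, 0.283, 0.116 and 0.106).

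There were 10 members not called in any of the 5 treatment effects: Bub1, Cdc20, Cenpe, Incenp, Kif4, Ndc80, Prc1, Top2a, Tpx2 and Ttk. They include both of the most abundant members per length, Cdc20 and Top2a. In PDS5AB their log2 changes ran from -0.19 (Cdc20) to 0.11 (Bub1). With the replicate block Cdc20, Ttk, Incenp and Top2a were called lower and Bub1 higher in PDS5AB.

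Reads were counted without regard to strand, and 10 members share exon bases with a gene on the opposite strand (Ccna2, Cdc20, Cdca8, Kif20a, Kif4, Nusap1, Plk1, Prc1, Sgo2a and Ube2c). Their values are uncertain to that extent. Among the other 27 members, 16 fell and 2 rose in PDS5AB (20.2% and 25.8% of all genes) and 9 fell in WAPL (15.8% of all genes).

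Other genes of the cell cycle were read beside the members. Their counts stand beside all genes called lower and higher, which were 20.2% and 25.8% in PDS5AB, 15.8% and 17% in WAPL, 8.06% and 11.4% in PDS5AB-NIPBL, 3.45% and 5.11% in WAPL-NIPBL, and 9.59% and 10.4% in TIR1. Of 53 further G2/M and mitotic genes, 27 fell and 4 rose in PDS5AB (median -0.20), and 11 fell and 5 rose in WAPL (-0.06). The largest was Lmnb1, the gene of lamin B1, at -0.87 in PDS5AB (edgeR adjusted p = 6.95e-11), followed by Nek2, a centrosomal kinase, at -0.67 in WAPL and Nde1 at -0.62 in PDS5AB. Of 17 subunits and regulators of the anaphase-promoting complex, 10 fell in PDS5AB and 7 in WAPL. Fbxo5, which encodes the inhibitor EMI1 that lets S-phase and mitotic cyclins accumulate, was at -1.09 in PDS5AB and -0.59 in WAPL, and at -0.52 and -0.23 in their combined lines, called lower in all 4 (edgeR), and at -0.07 and not called in TIR1.

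The 23 transcriptional regulators of the G2/M program did not move as one. There were 13 lower and 2 higher in PDS5AB, and 13 lower and 3 higher in WAPL. The combined lines had 10 lower and 1 higher with PDS5AB, and 4 lower and 1 higher with WAPL. Mybl2, the gene of B-MYB, was called lower in every line, with a log2 change of -0.20 in TIR1, -0.92 in PDS5AB, -0.53 in both WAPL and PDS5AB-NIPBL, and -0.44 in WAPL-NIPBL. Foxm1 was called in none, with log2 changes from -0.11 to 0.10. Rb1, the retinoblastoma gene, was higher in PDS5AB by 1.17 (edgeR adjusted p = 2.40e-11), in WAPL by 0.63 and in TIR1 by 0.65, and E2f2 was lower in all 5 lines.

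In the fit without the block, a larger share of the genes of the preceding phase than of the members was called lower. The lists were not tested against each other, and no blocked count was made for this list. Of 36 G1/S and replication genes, 33 fell in PDS5AB (median -0.48) and 29 in WAPL (-0.40). Fewer fell in the combined lines, 24 with PDS5AB (-0.25) and 9 with WAPL (-0.16). None of that list was called higher in these 4 lines by edgeR, and 10 fell and 2 rose in TIR1. Rrm2, a subunit of ribonucleotide reductase, was at -0.99 in PDS5AB and Pola1, of DNA polymerase alpha, at -0.94. Of 20 p53 targets, 16 rose in PDS5AB (median 0.71), 10 in WAPL, and 17 and 3 in their combined lines, and 12 rose with auxin alone in TIR1. Of 14 cell cycle brakes, 6 rose and 3 fell in PDS5AB: the CDK inhibitor genes Cdkn2c (1.68) and Cdkn2b (1.15) rose there, and Cdkn1c rose by 1.73 in WAPL. The summed level of these brakes rose without overlap in TIR1 (603 to 717 CPM) and in PDS5AB (543 to 625 CPM). In WAPL (649 to 617 CPM) and in both combined lines the groups overlapped. Cdkn1a, the gene of p21, was higher by 0.74 in PDS5AB and by 0.62 in TIR1. Foxm1 and Cdkn1a were picked out after their values were seen. The part of these genes in the result on the members was not tested.

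**Figure D5:**
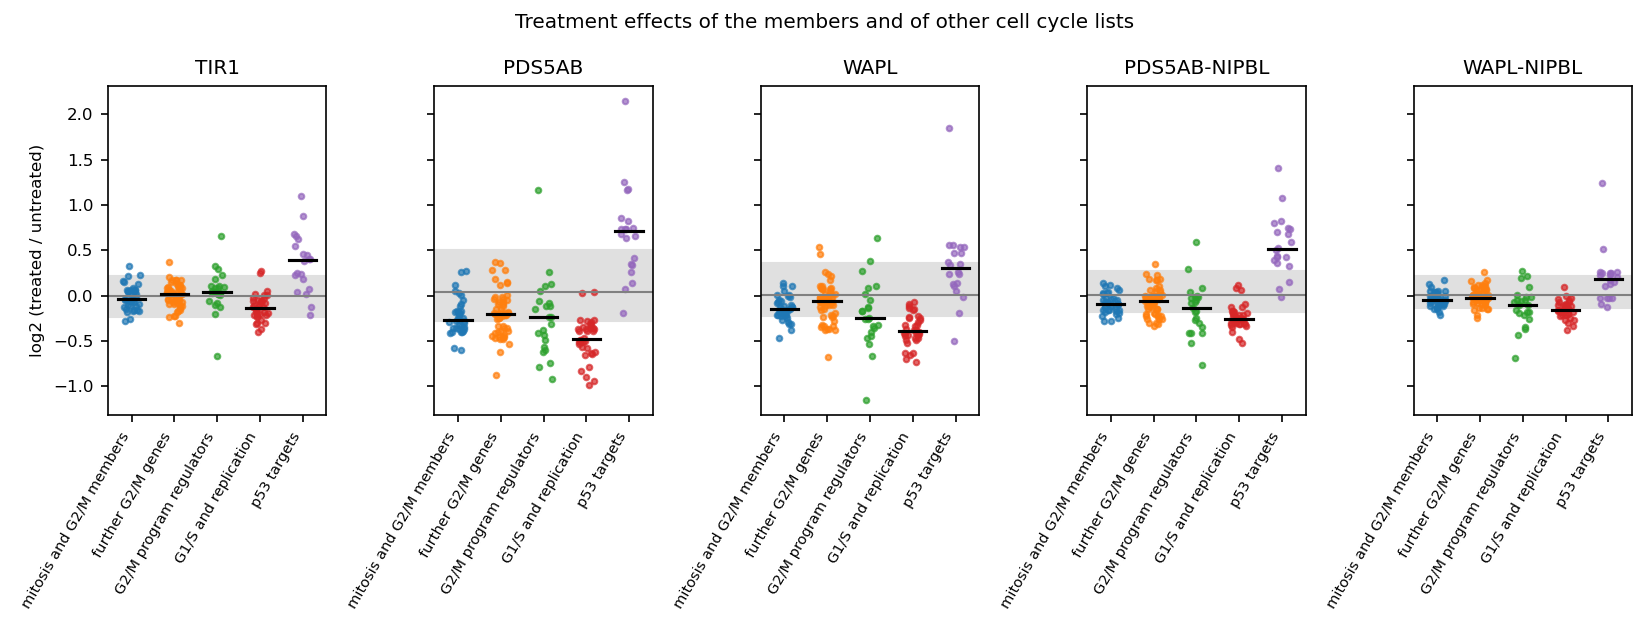
Log2 treatment effects of the members and of 4 other lists (1 point per gene, black bar for the list's median) in the 5 lines, over the middle quartiles (grey band) and median (grey line) of all 19868 genes tested. In PDS5AB the members' median lies at -0.27, above the -0.48 of the G1/S and replication genes, while the p53 targets lie at 0.71.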

How the data were processed

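RNA was measured in 30 libraries, 3 for each of 10 groups. The values used are raw counts per gene, which the authors made with featureCounts 2.0.1, per the file headers. STAR 2.7.7a, cutadapt and deepTools are named in the submitters' processing notes, and the build is GRCm38. Symbols were matched for 55154 of 55421 gene identifiers (99.5%). The labels do not say that replicates are separate cultures, so p-values measure only the spread between these libraries, which may be technical.

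Counts were fitted in R 4.3.3 with edgeR 4.0.16 (filterByExpr with a minimum count of 10, TMM factors from 0.950 to 1.13, quasi-likelihood test, 10 group means, 20 residual degrees of freedom). There were 16 comparisons: 5 treatment effects, 7 differences between effects and 4 baselines against untreated TIR1. A gene was called at a Benjamini-Hochberg adjusted p under 0.05 over 19868 genes, within each comparison. The fit was tested on simulated data. Standard errors are the log2 difference divided by the root of F.

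All members could be named. Library values were given for the member called most often in each role group and for the largest called changes, and from each other list the 3 largest called changes. The members and lists were chosen with earlier results of these data known. Alternatives were DESeq2 1.42.0, RLE factors, plain totals, no filter, a size threshold of 0.5, the compared groups alone, a replicate block and leaving out each library. Same-numbered untreated and treated libraries deviated together in all 4 degron lines (r from 0.109 to 0.333 over genes) but not in TIR1 (-0.0102 to 0.0574). The numbers were therefore read as pairs in the degron lines. The main fit had no replicate block, so its calls leave that pairing out, and blocked counts are given beside them.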

Additional observations from a re-analysis of the deposited data

Results flagged for a closer look

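The treatment effect differed between lines, by edgeR's test of the difference itself, for 31 pairings of a member with a pair of lines. Values are log2 differences.

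Against auxin alone, the PDS5AB effect was lower for Sgo1 (-0.67), Cenpf (-0.55), Sgo2a (-0.52), Mad2l1 (-0.42), Aurkb (-0.40), Ect2 (-0.33), Birc5 (-0.29), Kif11 (-0.29), Cenpa (-0.28), Ccnb2 (-0.25), Ccna2 (-0.24) and Bub1b (-0.22). Of these 12, Mad2l1, Cenpf, Sgo1 and Sgo2a passed in the 18 alternatives without a size threshold, and with a threshold of 0.5 Mad2l1 was lost. Bub1b and Ect2 were each lost without any 1 of 5 libraries (edgeR adjusted p from 0.0554 to 0.113 and from 0.0585 to 0.117), Birc5 without any 1 of 3 (0.0525 to 0.0840), and Ccnb2 without untreated TIR1 replicate 3 (0.0639).

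The WAPL effect was lower than the auxin effect for Sgo2a (-0.71), Pttg1 (-0.62), Kif23 (-0.52), Cenpf (-0.44), Cenpa (-0.28) and Sgo1 (-0.27). Sgo2a, Pttg1 and Kif23 passed in the 18 alternatives and with the threshold of 0.5, while Cenpf and Sgo1 were each lost without any 1 of 6 libraries (edgeR adjusted p from 0.0525 to 0.107 and from 0.0670 to 0.104). In PDS5AB-NIPBL, Sgo2a (-0.50) and Sgo1 (-0.29) were lower than with auxin alone, and Sgo1 was lost without any 1 of 8 libraries (0.0522 to 0.0808). In WAPL-NIPBL, Sgo2a (-0.52) was lower. All of these share the 6 TIR1 libraries, whose treated and untreated groups lie on different sides of the break in library numbers.

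The PDS5AB-NIPBL effect was higher than the PDS5AB effect for Mad2l1 (0.49), Ccnb2 (0.38), Sgo1 (0.38), Birc5 (0.36) and Ccna2 (0.29). The WAPL-NIPBL effect was higher than the WAPL effect for Pttg1 (0.63), Kif23 (0.36) and Ccnb2 (0.27). Ccnb2 and Kif23 were each lost there without any 1 of 9 libraries (edgeR adjusted p from 0.0751 to 0.159 and from 0.0529 to 0.194). The PDS5AB effect was higher than the WAPL effect for Kif23 (0.58) and lower for Sgo1 (-0.40).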

How the results depend on the processing

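Counts are of members called. With a size threshold of 0.5 they were 0 in TIR1, 2 in PDS5AB, 0 in WAPL and 0 in PDS5AB-NIPBL. For differences from the auxin effect they were 3 in PDS5AB, 3 in WAPL and 1 in PDS5AB-NIPBL, and 0 for PDS5AB-NIPBL against PDS5AB, 1 for WAPL-NIPBL against WAPL and 1 for PDS5AB against WAPL. For the baselines they were 1, 0, 1 and 2 in PDS5AB, WAPL, PDS5AB-NIPBL and WAPL-NIPBL. DESeq2 gave 9 in TIR1, 6 in PDS5AB-NIPBL, 1 in WAPL-NIPBL and 6 for PDS5AB against WAPL. The compared groups alone gave 9 in TIR1, 6 in WAPL, 5 in PDS5AB-NIPBL, 1 in WAPL-NIPBL, 2 for WAPL-NIPBL against auxin, 1 for WAPL-NIPBL against WAPL and 3 in the PDS5AB baseline. Plain totals gave 1 in WAPL-NIPBL, 5 for PDS5AB and 1 for PDS5AB-NIPBL against auxin, and 2 for PDS5AB-NIPBL against PDS5AB. Without the filter there were 2 for WAPL-NIPBL against auxin and 3 in the PDS5AB baseline, and RLE factors gave 1 for WAPL-NIPBL against WAPL. The cause was not tested.

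With the replicate block there were 17 in TIR1 (35.6% of all genes called), 27 in WAPL, and 18 and 10 in the combined lines PDS5AB-NIPBL and WAPL-NIPBL. Against auxin it gave 21, 14, 8 and 7 in PDS5AB, WAPL, PDS5AB-NIPBL and WAPL-NIPBL. These counts, and the 17 in TIR1, rest on pairs of TIR1 libraries that did not deviate together. The block gave 20 for PDS5AB-NIPBL against PDS5AB, 7 for WAPL-NIPBL against WAPL, 17 for PDS5AB against WAPL and 6 in the WAPL baseline (18.3% of all genes called). The block ended no call. Untreated libraries did not pair with same-numbered untreated TIR1 libraries in every case (r from 0.0709 to 0.207 in PDS5AB and from -0.0808 to 0.0366 in the others).

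Leaving out 1 library gave 1 to 4 in TIR1, 22 to 26 in PDS5AB, 6 (without treated replicate 3) to 14 in WAPL, 2 to 7 in PDS5AB-NIPBL and 0 to 0 in WAPL-NIPBL. Differences from auxin gave 9 to 15, 4 to 7, 1 to 2 and 1 to 1. PDS5AB-NIPBL against PDS5AB gave 4 to 10, WAPL-NIPBL against WAPL 0 to 3 and PDS5AB against WAPL 2 to 8. Baselines gave 3 to 7, 1 to 3, 8 to 10 and 6 to 8. Of the called members' 102 single results, plain totals ended 34, no filter 20, the compared groups alone 18, RLE factors 4 and DESeq2 0, and leaving out libraries ended 157 of its fits and kept 641. No called member changed sign.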
